A study of Mus musculus with 9 samples.

Results

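Spliceosome genes were taken as the genes whose pathway entry in the deposited table reads exactly Spliceosome and not also Protein processing in endoplasmic reticulum. This rule kept 126 of 21899 genes and left out 5 genes of the Hsp70 family, which carry both entries. The 9 libraries hold RNA of N2a (Neuro-2a) cells, a line from a mouse neuroblastoma whose cell type is given in the labels as neuroblast. The control group, shlucif, carried a lentiviral hairpin against luciferase, a gene that mouse cells do not have, and the Arf1-deficient groups, shArf1-1 and shArf1-2, carried 1 of 2 hairpins against Arf1, a small GTPase of the Golgi. Each group held 3 libraries, the labels give no treatment, all 9 libraries come from 1 cell line, and nothing in the labels says whether replicates were separate cultures, so the p-values measure only the spread between these libraries.

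The spliceosome removes introns from pre-mRNA and joins the exons. Its core is built from small nuclear ribonucleoproteins (snRNPs) named U1, U2, U4, U5 and U6, each an RNA with a ring of Sm or LSm proteins and its own proteins. U1 recognises the start of an intron and U2 its branch point, the U4/U6 and U5 tri-snRNP then joins, and the Prp19 complex and a series of helicases bring the machine to its active form. SR proteins and hnRNP proteins bind the pre-mRNA itself and, mostly in opposition to each other, set which sites are used, and the exon junction complex marks the finished exon junctions for export, translation and decay.

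Arf1 itself, which checks the labels, was at 324 ± 6.72 FPKM (SD, n = 3) in shlucif cells, 128 ± 1.73 (SD) FPKM with shArf1-1 and 165 ± 6.92 (SD) FPKM with shArf1-2. FPKM is the count of a gene scaled by its length and by the total of its library, and group values are given as the mean ± SD of 3 libraries. The libraries held between 11182479 and 15594615 counts. Of 16 neuroblast and neuronal markers, 13 passed the filter on low counts and 3, Nefl and Nefm among these, were at or near 0 in every library. By edgeR, 10 of the 13 rose at an adjusted p under 0.05 and 1 fell. Over all tested genes these shares were 31.6% and 32.9%. The 16 neuroblast and neuronal markers summed to between 607 and 641 FPKM with shlucif. With shArf1-1 this sum was between 942 and 1086 FPKM, and with shArf1-2 between 967 and 1046 FPKM. The 16 macrophage and microglia markers summed to between 194 and 234 FPKM with shlucif. Their sum was between 0.637 and 0.833 FPKM with shArf1-1 and between 0.741 and 1.08 FPKM with shArf1-2. Of the 16, 7, Ctss and Itgam among these, had no count in any Arf1-deficient library. Aif1, Cx3cr1 and C1qa, also among the 7, were near 0 with shlucif too, with at most 5, 2 and 1 counts in a library. The sums of both marker lists therefore separate the same libraries as every comparison with shlucif below, and the part of these markers in the results was not tested. In bulk RNA, fewer cells of a type and less RNA per cell cannot be told apart.

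Spliceosome genes took between 1.68% and 1.71% of all counts in the shlucif libraries, between 2.11% and 2.21% with shArf1-1 and between 2.06% and 2.08% with shArf1-2. All 6 Arf1-deficient libraries thus lay above all 3 control libraries. Of the 126 genes, 121 had enough counts to be tested, with mean levels over the 9 libraries between 0.651 and 441 FPKM and a median of 26.3 FPKM, beside 7.04 FPKM for all 12448 tested genes. In Arf1-deficient cells 67 of the 121 were higher and 14 were lower, which is 55.4% and 11.6% of them, where the threshold was an adjusted p of 0.05. Adjusted p-values are those of the quasi-likelihood test of edgeR after Benjamini-Hochberg correction over all tested genes. Over all tested genes the same threshold called 31.6% higher, 32.9% lower and 64.5% in either direction. The median log2 fold change of the 121 genes was 0.22, or 1.17-fold, beside 0.003 for all tested genes, so the typical change was small. A log2 fold change of at least 1 was reached by 7 spliceosome genes upward, beside 4.68% of all tested genes, and by 0 downward, beside 9.33%, although 14 had fallen past the threshold. The FPKM values of the groups did not overlap for 73 spliceosome genes that lay higher in the 6 Arf1-deficient libraries and for 6 that lay lower, beside 32.5% and 26.7% of all tested genes.

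Each hairpin was also compared with shlucif in a fit of the 3 groups. With shArf1-1, 69 spliceosome genes were higher and 11 lower, beside 33.1% and 34.4% of all tested genes (67.5% together), and their median log2 fold change was 0.26. With shArf1-2, 57 were higher and 18 lower, beside 30.9% and 32.6% of all tested genes (63.4% together), and their median was 0.16. Both comparisons use the same shlucif libraries. In these fits 55 genes were higher with each hairpin, 11 lower with each, and 0 past the threshold in opposite directions, beside 27.3%, 29.0% and 0.217% of all tested genes.

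**Figure D1:**
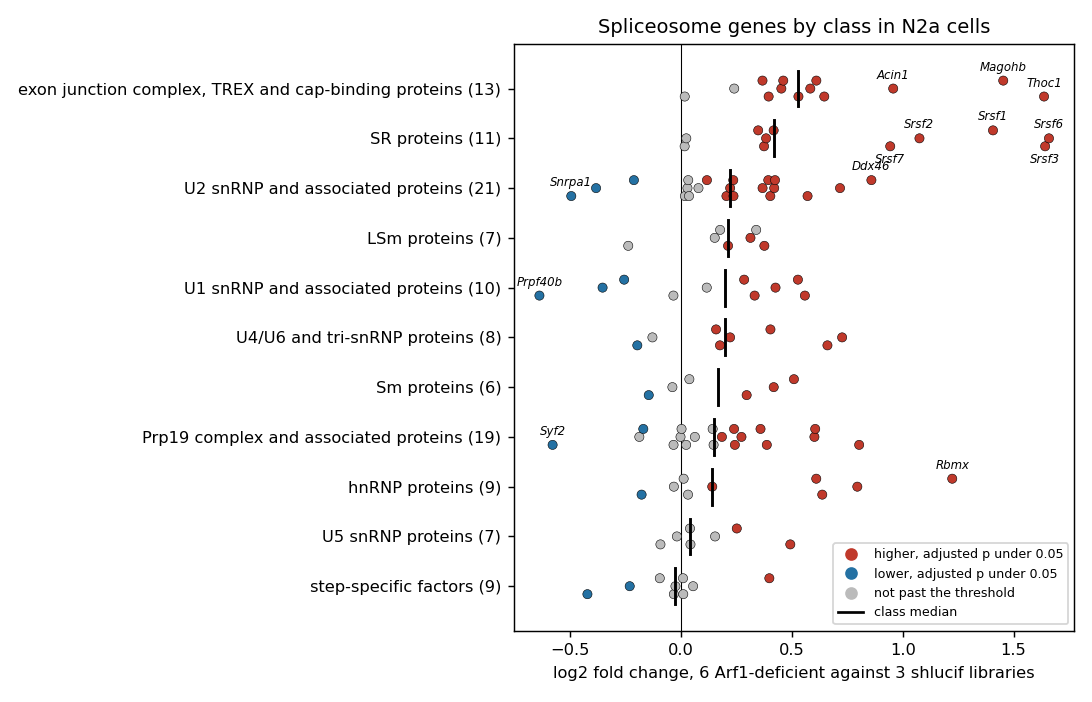
Log2 fold change of each tested spliceosome gene (x axis, 6 Arf1-deficient against 3 shlucif libraries) by class (y axis, number of tested genes in brackets), with red points higher, blue points lower and grey points not past an adjusted p of 0.05, and a black line at each class median. The 7 genes past a log2 fold change of 1 lie in 3 classes, with 4 among SR proteins, 2 among exon junction, TREX and cap-binding proteins and 1 among hnRNP proteins.

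By class, the medians of the log2 fold change were highest for the exon junction complex, TREX and cap-binding proteins, at 0.53 over 13 tested genes, and for SR proteins, at 0.42 over 11. The 6 snRNP classes together had a median of 0.20 over 59 tested genes, with 32 higher and 8 lower. Counts by class, here and below, stand beside 31.6% higher and 32.9% lower over all tested genes, or 64.5% together. Among these classes the medians ran from 0.22 for U2 proteins (21 tested) through 0.21 for LSm proteins (7), 0.20 for U1 proteins (10), 0.20 for U4/U6 and tri-snRNP proteins (8) and 0.17 for Sm proteins (6) to 0.04 for U5 proteins (7). The SD of the class median over libraries of a hairpin was 0.10 for LSm and U1 and 0.07 for Sm proteins, so the order of close medians is not settled. With shArf1-1 and then shArf1-2 the medians were 0.24 and 0.17 for U2, 0.29 and 0.13 for LSm and 0.16 and 0.24 for U1 proteins. They were 0.27 and 0.13 for U4/U6, 0.29 and 0.04 for Sm and 0.08 and 0.04 for U5 proteins. Prp19 complex proteins had a median of 0.15 over 19 tested genes, hnRNP proteins 0.14 over 9 and the step-specific factors -0.03 over 9. Without the SR proteins, 58 of the other 110 tested genes were higher and 14 lower. Rp9, and Gm4340 with at most 1 count in any library, were placed in no class.

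The SR proteins carry arginine-serine repeats and mostly promote the use of the sites near which they bind. Of 11 measured genes, 9 were higher in Arf1-deficient cells and 0 lower, and 5 of them rose by more than 0.9 on the log2 scale. Srsf6 was at 17.3, 16.6 and 16.0 FPKM in the shlucif libraries, at 58.1, 52.1 and 57.2 FPKM with shArf1-1 and at 53.9, 52.8 and 55.2 FPKM with shArf1-2. Its log2 fold change was 1.66 (SE 0.06, adjusted p = 2.31e-14 by edgeR), a 3.16-fold rise and the largest among the spliceosome genes. Srsf3, the shortest SR protein, was at 15.2, 13.9 and 14.3 FPKM with shlucif, at 50.3, 41.8 and 51.0 FPKM with shArf1-1 and at 46.4, 47.1 and 46.6 FPKM with shArf1-2. For both genes every Arf1-deficient library lay far above every control library. The log2 fold change of Srsf3 was 1.64 (SE 0.07, adjusted p = 9.38e-14 by edgeR).

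Srsf1, which encodes the splicing factor also called SF2, was at 15.9, 17.3 and 16.4 FPKM with shlucif, at 48.8, 42.4 and 53.5 FPKM with shArf1-1 and at 44.2, 43.5 and 42.2 FPKM with shArf1-2, a log2 fold change of 1.41 (SE 0.08, adjusted p = 1.57e-11 by edgeR). Srsf2, which encodes SC35, a protein used as a marker of nuclear speckles, went from 23.8 ± 1.52 (SD) FPKM to 55.5 ± 5.44 (SD) FPKM with shArf1-1 and 49.2 ± 2.91 (SD) FPKM with shArf1-2, a log2 fold change of 1.08 (SE 0.08, adjusted p = 1.06e-09 by edgeR). Srsf7, the close relative of Srsf3 that has a zinc knuckle, went from 31.1 ± 1.06 (SD) FPKM to 62.8 ± 1.73 (SD) FPKM and 62.2 ± 2.08 (SD) FPKM, a log2 fold change of 0.94 (SE 0.05, adjusted p = 8.92e-12 by edgeR). For these genes, too, no Arf1-deficient library overlapped a control library.

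The other SR genes moved less. Srsf5, at 51.1 ± 2.22 (SD) FPKM the most abundant SR gene in control cells, rose by 0.38 on the log2 scale, and Tra2a and Tra2b, the paralogous Tra2 proteins that bind exonic enhancers, rose by 0.42 and 0.37 (adjusted p = 2.28e-06, 5.30e-05 and 5.72e-06 by edgeR). Srsf10 rose by 0.35 (SE 0.10, adjusted p = 0.00908 by edgeR), but without shlucif replicate 1 the adjusted p was 0.0553. Srsf4 had a log2 fold change of 0.02 (SE 0.08, adjusted p = 0.814 by edgeR), with 8.82 ± 0.200 (SD) FPKM in control cells and 9.17 ± 0.697 (SD) FPKM and 9.55 ± 0.634 (SD) FPKM with the hairpins. Srsf9 had a log2 fold change of 0.02 (SE 0.06, adjusted p = 0.836 by edgeR) from a control level of 47.3 ± 2.39 (SD) FPKM. Each is a close relative of a gene that rose past a log2 fold change of 1, Srsf4 of Srsf6 and Srsf9 of Srsf1, and the difference within these pairs was not tested. In control cells the order of the levels ran from Srsf5 and Srsf9 through Srsf7, Srsf2, Srsf10, Srsf6, Srsf1, Srsf3, Tra2b and Tra2a to Srsf4. In this order the SD ranges of neighbours overlapped for Srsf5 and Srsf9, Srsf10 and Srsf2, Srsf6 and Srsf1, and Srsf3 and Tra2b. In all 6 Arf1-deficient libraries Srsf6 and Srsf3 lay above 40 FPKM, while Tra2a and Tra2b, near them in control cells, stayed below 20 FPKM.

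**Figure D2:**
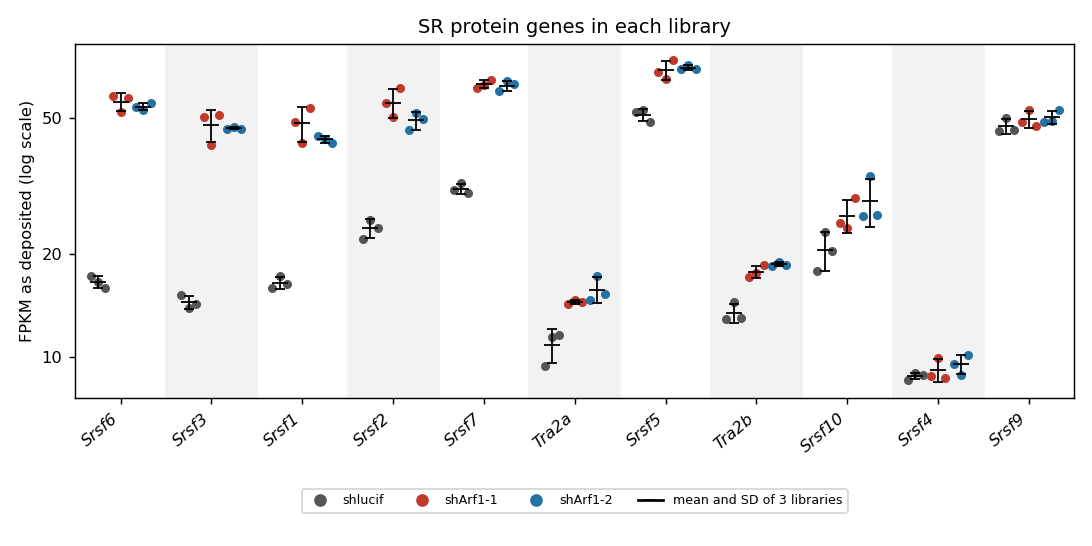
FPKM (y axis, log scale) of the 11 SR protein genes (x axis, ordered by log2 fold change) in each of the 9 libraries, with the mean and SD of each group of 3. Srsf6, Srsf3, Srsf1, Srsf2 and Srsf7 show the 6 Arf1-deficient libraries apart from the 3 shlucif libraries, while in Srsf4 and Srsf9 the groups overlap.

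Of the 4 SR genes that rose past a log2 fold change of 1, Srsf3 is left out of the promoters shown here. The promoters of the others, Srsf6, Srsf1 and Srsf2, are shown beside that of Srsf9, which did not pass the threshold. They are the 250 bases before the transcription start in RefSeq's annotation of GRCm38.p6, on the gene's strand, for Srsf6 chr2:162931258-162931507 (plus strand), Srsf1 chr11:88047123-88047372 (plus), Srsf2 chr11:116853095-116853344 (minus) and Srsf9 chr5:115326927-115327176 (plus). Capitals mark matches on either strand to the 6 motifs searched, which are spelled out after the sequences and can overlap one another.
Srsf6: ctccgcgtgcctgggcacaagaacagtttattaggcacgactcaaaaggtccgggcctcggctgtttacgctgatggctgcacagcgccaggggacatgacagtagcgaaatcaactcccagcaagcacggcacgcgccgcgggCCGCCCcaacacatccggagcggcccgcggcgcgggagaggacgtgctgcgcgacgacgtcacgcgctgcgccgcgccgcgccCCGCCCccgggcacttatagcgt
Srsf1: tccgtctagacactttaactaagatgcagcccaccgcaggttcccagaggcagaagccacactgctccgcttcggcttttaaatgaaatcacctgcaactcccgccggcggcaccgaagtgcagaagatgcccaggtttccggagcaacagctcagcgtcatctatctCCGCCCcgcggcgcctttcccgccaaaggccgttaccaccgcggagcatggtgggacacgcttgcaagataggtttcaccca
Srsf2: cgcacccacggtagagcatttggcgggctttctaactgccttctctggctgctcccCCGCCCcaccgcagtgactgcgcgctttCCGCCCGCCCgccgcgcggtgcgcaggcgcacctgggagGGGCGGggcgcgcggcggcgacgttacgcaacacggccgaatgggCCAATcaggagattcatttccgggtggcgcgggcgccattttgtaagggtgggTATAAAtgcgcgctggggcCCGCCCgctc
Srsf9: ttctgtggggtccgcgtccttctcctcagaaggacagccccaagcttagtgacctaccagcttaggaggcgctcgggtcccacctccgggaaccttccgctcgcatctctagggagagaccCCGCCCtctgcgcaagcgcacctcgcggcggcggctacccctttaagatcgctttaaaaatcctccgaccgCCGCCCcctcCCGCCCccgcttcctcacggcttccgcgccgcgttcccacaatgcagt
The letters GGGCGG, to which Sp1 binds, are in 10 of the 11 SR promoters, beside 33.0% of all 27025 promoters of the table and 60.1% of the 9917 promoters that belong to a tested gene. The exception is Srsf3. The TATA box TATAAA is in 2 SR promoters, Srsf2 and Srsf3, beside 13% of all promoters and 6.1% of those of tested genes. The box CCAAT is in 4 of them, beside 34.5% of all promoters and 36.9% of those of tested genes. The letters CCGGAAG, read by ETS factors, are in 3 of them, beside 7.1% of all promoters and 14.1% of those of tested genes. The letters GATGGCG, read by the factor YY1, are in 1 of them, that of Srsf10, beside 2.2% of all promoters and 3.6% of those of tested genes. The E-box CACGTG is in 0 of them, beside 6.0% of all promoters and 8.5% of those of tested genes. Srsf9, which did not pass the threshold, has 3 matches to the Sp1 letters, as many as Srsf7, which rose, while Srsf6 has 2, Srsf1 has 1 and Srsf2 has 5. The other spliceosome genes are not described in this way, since only 98 of all 126 had an entry in the promoter table.

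All 10 SR genes other than Srsf10 have at least 1 transcript annotated in GENCODE M21 (GRCm38) as a target of nonsense-mediated decay, the pathway that degrades mRNAs with an early stop codon. Among the 67 higher spliceosome genes 26 have one (38.8%), among the 40 that did not pass the threshold 13 (32.5%) and among the 14 lower genes 7, beside 28.8% of all tested protein-coding genes. The deposited counts add up all transcripts of a gene, so productive and decaying forms cannot be told apart. Srsf6 lies on chromosome 2 from 162931528 to 162937121, and none of its exons overlaps another annotated gene. Exons of Srsf1 overlap Gm11508 on the other strand, and those of Srsf2 overlap Mettl23 and Mfsd11. Whether counting used strand is not stated, so such reads may be shared.

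Proteins of the exon junction complex, of the TREX complex that couples splicing to mRNA export, and of the cap-binding complex were higher for 11 of 13 tested genes and lower for 0. Thoc1, a subunit of the THO part of TREX, was at 0.747, 0.920 and 0.797 FPKM with shlucif, at 3.02, 2.30 and 3.06 FPKM with shArf1-1 and at 2.58, 2.64 and 2.38 FPKM with shArf1-2, a log2 fold change of 1.64 (SE 0.13, adjusted p = 1.36e-09 by edgeR). This is a low level, between 92 and 110 counts in the control libraries, and on the log2(FPKM + 1) scale the change was 1.01. Its exons overlap those of Usp14 on the other strand. Magohb, a paralog of the exon junction protein Magoh, had 45, 14 and 17 counts with shlucif while the Arf1-deficient libraries ranged from 50 to 105. Its log2 fold change was 1.45 (SE 0.29, adjusted p = 2.47e-04 by edgeR), and 1 control library stood well above the other two, so that it was 2.15 without shlucif replicate 1. Magoh itself, at 33.9 ± 1.41 (SD) FPKM in control cells, rose by 0.53, and Rbm8a, its partner in the complex, by 0.39 (adjusted p = 2.13e-05 and 4.96e-06 by edgeR). Reads of the paralogs Magoh and Magohb may be shared, but their sequences were not compared and sharing was not tested.

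Acin1, a protein that joins exon junction complexes and binds RNA, was at 6.74, 6.90 and 6.06 FPKM with shlucif and between 11.9 and 14.3 FPKM in the Arf1-deficient libraries, a log2 fold change of 0.96 (SE 0.08, adjusted p = 2.20e-09 by edgeR). Eif4a3, the helicase that anchors the exon junction complex and the most abundant gene of the class, rose by 0.37 from 92.5 ± 4.91 (SD) FPKM, and the export factors Alyref and Thoc3 rose by 0.58 and 0.61 (adjusted p = 3.42e-05, 4.64e-07 and 7.07e-08 by edgeR). The genes of the class that did not pass the threshold were Ncbp1, with a log2 fold change of 0.02, and Alyref2, which was at or below 1.07 FPKM in every library.

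Of the hnRNP proteins, 5 of 9 tested genes were higher and 1 was lower, beside 31.6% and 32.9% of all tested genes. Rbmx, which encodes hnRNP G, was at 3.03, 3.49 and 3.81 FPKM with shlucif, at 9.56, 9.77 and 8.99 FPKM with shArf1-1 and at 6.88, 7.70 and 7.54 FPKM with shArf1-2. Its log2 fold change was 1.22 (SE 0.12, adjusted p = 8.70e-08 by edgeR). Rbmxl1, an intronless copy of Rbmx at 47.1 ± 2.49 (SD) FPKM in control cells, rose by 0.61, and reads may be split between the copies, so the level of either gene alone is uncertain. Hnrnpm rose by 0.79 and Hnrnpu, the largest hnRNP protein, by 0.64 (adjusted p = 4.51e-10 and 1.09e-06 by edgeR), with all 6 Arf1-deficient libraries above every control library for both. Hnrnpa1, the member with the most FPKM of all spliceosome genes, was at 426 ± 12.6 (SD) FPKM with shlucif, 458 ± 21.9 (SD) FPKM with shArf1-1 and 439 ± 3.71 (SD) FPKM with shArf1-2, a log2 fold change of 0.01 (SE 0.05, adjusted p = 0.844 by edgeR). Pcbp1, which encodes hnRNP E1, had a log2 fold change of 0.03 (adjusted p = 0.607 by edgeR). Hnrnpk rose by 0.14 and Hnrnpc fell by 0.18 on the log2 scale (adjusted p = 0.0129 and 0.00833 by edgeR), but Hnrnpk missed the threshold without shlucif replicate 1 (adjusted p = 0.0563). Hnrnpc missed it without shlucif replicate 3 (adjusted p = 0.0515 by edgeR), with scaling by library size alone (adjusted p = 0.0619) and with limma on either FPKM scale.

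**Figure D3:**
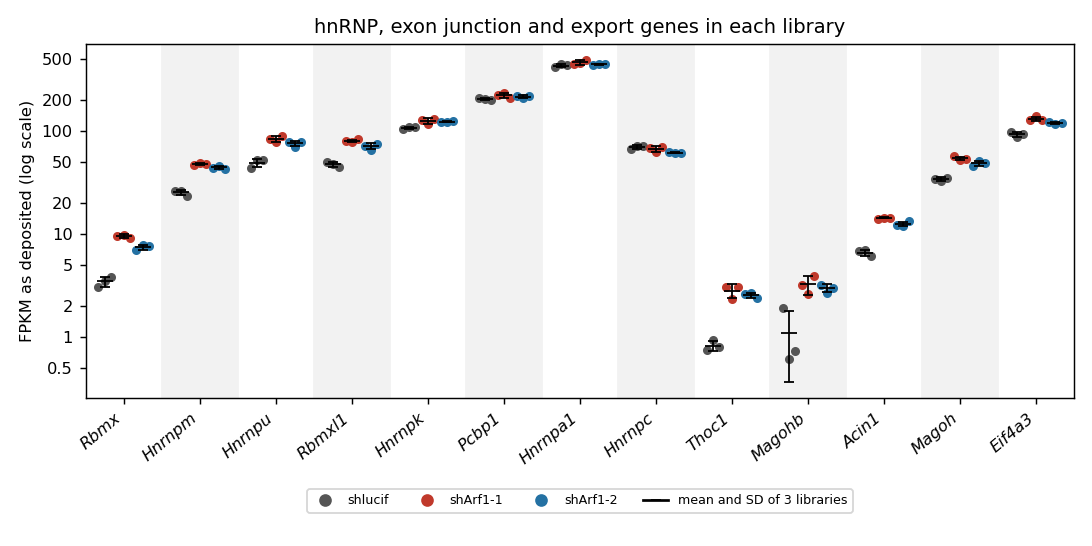
FPKM (y axis, log scale) of 8 hnRNP genes and 5 exon junction and export genes (x axis) in each of the 9 libraries, with the mean and SD of each group of 3. Rbmx, Thoc1 and Acin1 show the Arf1-deficient libraries well above the shlucif libraries, while Hnrnpa1 stays above 400 FPKM in every library, with overlapping groups.

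The U1 snRNP recognises the first bases of an intron, and its 3 specific proteins did not rise. Snrnp70, the U1-70K protein, was at 42.1, 46.1 and 43.3 FPKM with shlucif, at 32.1, 36.2 and 37.6 FPKM with shArf1-1 and at 32.4, 43.8 and 32.8 FPKM with shArf1-2, where 1 library reached the control range. It fell by 0.35 on the log2 scale (SE 0.08, adjusted p = 8.71e-04 by edgeR). Snrpa, another of them, fell by 0.26 from 40.4 ± 3.73 (SD) FPKM (adjusted p = 0.00226 by edgeR), with the groups overlapping in FPKM, and Snrpc did not pass the threshold. Prpf40b, which bridges U1 with the branch point, fell by 0.64 (SE 0.11, adjusted p = 9.26e-05 by edgeR), from 21.3, 20.1 and 21.4 FPKM with shlucif to 12.2, 13.2 and 11.3 FPKM with shArf1-1 and 15.8, 17.7 and 14.2 FPKM with shArf1-2. The higher genes of this class were associated proteins that bind RNA or unwind it, among them Ddx5, with 176 ± 1.95 (SD) FPKM in control cells, which rose by 0.43, and Ddx42, which rose by 0.53 (adjusted p = 2.84e-07 and 8.59e-08 by edgeR). Rbm25 is also among them with a rise of 0.33 (adjusted p = 0.0117 by edgeR), which missed the threshold without shlucif replicate 1 (adjusted p = 0.0596) and as the average of the hairpin contrasts.

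Of the U2 proteins, which bind at the branch point and the end of the intron, 13 of 21 tested genes were higher and 3 lower, and genes of the same subcomplex went different ways. Within SF3b, Sf3b3 rose by 0.72 (SE 0.05, adjusted p = 2.89e-10 by edgeR), from 26.6 ± 0.586 (SD) FPKM to 45.8 ± 1.12 (SD) FPKM with shArf1-1 and 45.4 ± 2.01 (SD) FPKM with shArf1-2. Sf3b2 fell by 0.38 (SE 0.05, adjusted p = 1.18e-06 by edgeR), from 35.9, 36.3 and 36.9 FPKM to between 28.0 and 31.3 FPKM. Sf3b1, the subunit that holds the branch point, was at 32.3 ± 1.24 (SD) FPKM and had a log2 fold change of 0.02 (SE 0.05, adjusted p = 0.773 by edgeR). Ddx46, the Prp5 helicase that acts when U2 binds, rose most, by 0.86 (SE 0.09, adjusted p = 9.17e-08 by edgeR), from 9.28, 10.5 and 9.24 FPKM with shlucif to 19.5, 20.2 and 20.4 FPKM with shArf1-1 and 15.8, 17.1 and 17.0 FPKM with shArf1-2. Snrpa1, a protein of the U2 particle itself, fell by 0.50 (SE 0.08, adjusted p = 1.20e-05 by edgeR), with control libraries between 15.4 and 15.9 FPKM and Arf1-deficient libraries between 9.98 and 12.7 FPKM. The U2AF subunits changed little. U2af2 rose by 0.22 and U2af1 by 0.12 (adjusted p = 0.00839 and 0.0467 by edgeR), U2af2 missed the threshold without shlucif replicate 2 (adjusted p = 0.0530), and U2af1 missed it in 5 other settings, DESeq2 among them (adjusted p = 0.0532), and without any of 7 of the 9 libraries.

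The Sm proteins form the ring around the snRNAs of U1, U2, U4 and U5, and the LSm proteins that around U6. Among 6 tested Sm genes, Snrpb, Snrpd3 and Snrpd1 rose, by 0.42, 0.51 and 0.30 on the log2 scale (adjusted p = 1.13e-06, 9.62e-07 and 0.00342 by edgeR). Snrpb, the most abundant, went from 84.6 ± 4.14 (SD) FPKM to 119 ± 3.39 (SD) FPKM and 118 ± 4.56 (SD) FPKM. Snrpd2 fell by 0.15 (SE 0.06, adjusted p = 0.0421 by edgeR) and missed the threshold in 6 other settings, with an adjusted p of 0.207 under scaling by library size alone, and without any of 5 of the 9 libraries. Snrpf, which encodes another protein of the ring, had at most 4 counts in any library and was not tested, and its annotated exons overlap those of Ccdc38 on the other strand. Of the 7 LSm genes 3, Lsm6, Lsm3 and Lsm7, were higher and 0 lower, beside 31.6% and 32.9% of all tested genes. With shArf1-1 alone 5 were higher and 0 lower, beside 33.1% and 34.4% of all tested genes. With shArf1-2 alone 0 were higher and 1 lower, beside 30.9% and 32.6%, and 0 were higher with each hairpin. Lsm3 rose by 0.31 (adjusted p = 0.0202 by edgeR) and missed the threshold without shlucif replicate 2 (adjusted p = 0.0671) or shlucif replicate 3 (adjusted p = 0.130). Lsm4, the most abundant, had a log2 fold change of -0.24 (SE 0.15, adjusted p = 0.183 by edgeR), and passed the threshold without shArf1-1 replicate 2 (-0.31, adjusted p = 0.0475) and as the average of the hairpin contrasts (-0.26).

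Among the proteins of the U4/U6 and U4/U6.U5 particles, 6 of 8 were higher and 1 lower. Prpf31, which holds U4/U6 to U5, rose by 0.73 (SE 0.07, adjusted p = 3.59e-08 by edgeR), from control libraries between 6.66 and 7.23 FPKM to between 11.3 and 12.7 FPKM in the Arf1-deficient libraries. Ppih, the cyclophilin of the particle, rose by 0.66, and Snu13, the most abundant gene of the class, by 0.16 (adjusted p = 5.92e-05 and 0.00906 by edgeR), the latter with an adjusted p of 0.0710 without shlucif replicate 2. The large U5 proteins moved little. Prpf8, which forms the catalytic centre with the snRNAs, had a log2 fold change of 0.04 (SE 0.05, adjusted p = 0.474 by edgeR) at 82.3 ± 3.86 (SD) FPKM in control cells, and Eftud2, the GTPase beside it, one of -0.09 (SE 0.05, adjusted p = 0.110 by edgeR). Eftud2 passed the threshold with the gene length correction, at -0.15, as the average of the hairpin contrasts (adjusted p = 0.0475 by edgeR) and without shArf1-1 replicate 2 (adjusted p = 0.0387). Snrnp200, the Brr2 helicase that unwinds U4 from U6, rose by 0.25 (adjusted p = 5.95e-04 by edgeR). Txnl4a, the smallest U5 protein, rose by 0.49 (adjusted p = 0.00727 by edgeR, and 0.0658 without shlucif replicate 2) from 2.44 ± 0.373 (SD) FPKM.

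The Prp19 complex and its partners bring the assembled spliceosome to its active form. Among their 19 genes 9 were higher and 2 lower, beside 31.6% and 32.9% of all tested genes. Bud31 rose by 0.80 and Prpf19, the ubiquitin ligase that names the complex, by 0.60 (SE 0.09 and 0.06, adjusted p = 1.23e-07 and 1.53e-07 by edgeR). Prpf19 went from 27.9, 25.5 and 24.7 FPKM with shlucif to 43.1 ± 3.01 (SD) FPKM with shArf1-1 and 39.4 ± 0.797 (SD) FPKM with shArf1-2. Ctnnbl1, a binding partner of Cdc5l, rose by 0.24 from 40.7 ± 1.40 (SD) FPKM, with an adjusted p of 8.23e-04 by edgeR. Syf2, another partner of the complex, fell by 0.58 (SE 0.07, adjusted p = 4.89e-07 by edgeR), from 46.4, 43.3 and 49.1 FPKM with shlucif to 35.1, 32.0 and 34.7 FPKM with shArf1-1 and 30.6, 30.8 and 30.7 FPKM with shArf1-2.

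Of the 9 step-specific factors, which join for single steps and leave again, 1 was higher and 2 lower. Zmat2, a zinc finger protein of the complex before activation, rose by 0.40 and Cdc40, the Prp17 protein of the second step, fell by 0.42 on the log2 scale (adjusted p = 7.27e-05 and 3.26e-05 by edgeR). Cdc40 was between 7.58 and 8.94 FPKM in control libraries and between 5.83 and 6.91 FPKM in Arf1-deficient libraries. Rp9, whose human counterpart is mutated in a form of retinitis pigmentosa, fell most among the spliceosome genes, by 0.72 (SE 0.12, adjusted p = 3.48e-05 by edgeR), from 6.85, 8.58 and 7.30 FPKM with shlucif to between 3.81 and 5.90 FPKM. Human PRPF31 and PRPF8 are mutated in other forms of that disease, and Prpf31 rose here while Prpf8 did not pass the threshold.

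**Figure D4:**
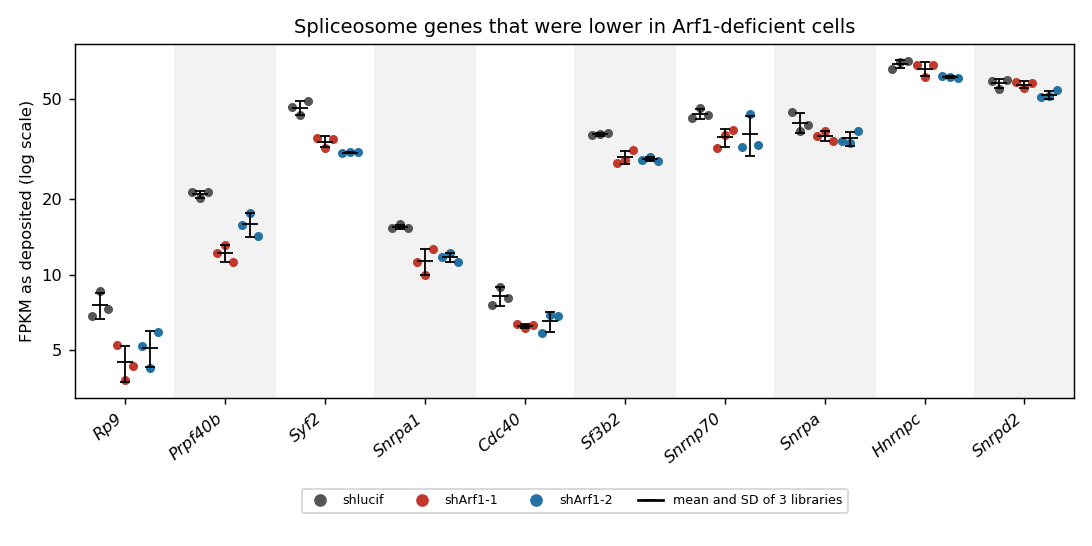
FPKM (y axis, log scale) of 10 of the 14 spliceosome genes that were lower in Arf1-deficient cells (x axis) in each of the 9 libraries, with the mean and SD of each group of 3. The 6 Arf1-deficient libraries lie below all 3 shlucif libraries for Rp9, Prpf40b, Syf2, Snrpa1, Cdc40 and Sf3b2, and the groups overlap for Snrnp70, Snrpa, Hnrnpc and Snrpd2.

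The hairpins themselves differed in 19 spliceosome genes at an adjusted p under 0.05 by edgeR, 1 higher and 18 lower with shArf1-2 than with shArf1-1. Over all tested genes 6.98% were higher and 7.46% lower, or 14.4% together. Arf1 itself was higher with shArf1-2, by 0.34 on the log2 scale. The number of differing spliceosome genes was 12 without shArf1-1 replicate 1, 11 without shArf1-2 replicate 1 and 10 without shArf1-2 replicate 2. Of the 18, 3 are among 7 tested LSm genes, 3 among 6 Sm genes, 3 among 21 U2 genes and 3 among 13 exon junction, TREX and cap-binding genes. The others are 2 SR genes, 2 hnRNP genes, 1 U5 gene and 1 step-specific factor. Lsm6 was at 13.9, 12.7 and 15.2 FPKM with shArf1-1 and at 10.2, 10.3 and 10.3 FPKM with shArf1-2, beside 8.94 ± 0.968 (SD) FPKM with shlucif. The difference was -0.47 (SE 0.08, adjusted p = 1.19e-04 by edgeR), and Lsm6 rose by 0.59 with shArf1-1 and had a log2 fold change of 0.13 with shArf1-2. In the comparison of both hairpins with shlucif its adjusted p was 0.0290, and the threshold was missed without shlucif replicate 1 (0.128), shlucif replicate 2 (0.0948) or shArf1-1 replicate 2 (0.0520).

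Lsm4 was at 173, 183 and 159 FPKM with shArf1-1 and at 114, 128 and 138 FPKM with shArf1-2, a difference of -0.46 (SE 0.07, adjusted p = 9.05e-06 by edgeR), with control libraries between 162 and 174 FPKM. It fell by 0.49 with shArf1-2 and had a log2 fold change of -0.03 with shArf1-1 (adjusted p = 0.718 by edgeR). Prpf18, a factor of the second step, was likewise below control with shArf1-2 (log2 fold change -0.30, adjusted p = 2.61e-04 by edgeR) and did not pass with shArf1-1 (0.08), and the difference was -0.38 (adjusted p = 1.36e-04). Txnl4a differed by -0.46 and Rbmx by -0.37 (adjusted p = 0.00767 and 0.00351 by edgeR). Among the SR genes, Srsf1 and Srsf2 rose less with shArf1-2, by 0.18 and 0.19 on the log2 scale (adjusted p = 0.0474 and 0.0368 by edgeR), while Srsf6, Srsf3 and Srsf7 had differences of -0.07, -0.05 and -0.03 that did not pass the threshold. Prpf40b was the gene that differed the other way, by 0.37 (SE 0.07, adjusted p = 6.72e-04 by edgeR), and it fell by 0.84 with shArf1-1 and by 0.47 with shArf1-2.

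**Figure D5:**
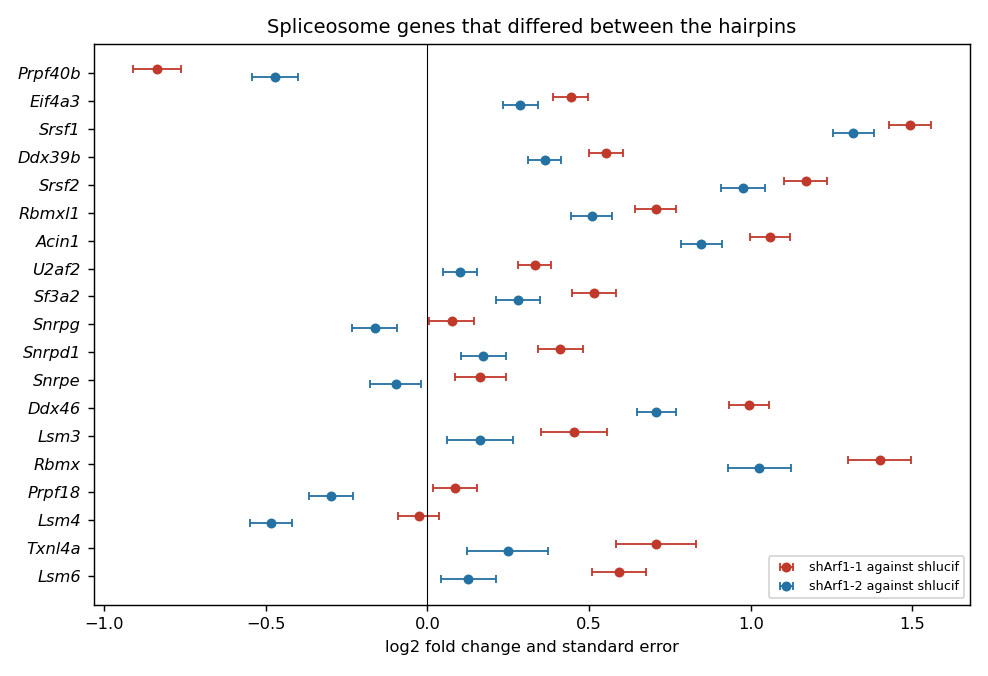
Log2 fold change against shlucif with its SE (x axis) for shArf1-1 in red and shArf1-2 in blue, for the 19 spliceosome genes that differed between the hairpins (y axis, ordered by the difference). In 18 genes the shArf1-2 point lies to the left of the shArf1-1 point, and in Prpf40b it lies to the right.

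Genes that act on splicing from outside the pathway entry were read from lists of their own, whose counts stand beside 31.6% higher and 32.9% lower over all tested genes. The list of SR protein kinases was written by hand from the SRPK, CLK and DYRK families, and action on SR proteins was not checked for each. Of its 9 tested kinases, 1 was higher and 4 lower, so that the share called was not above the 64.5% of all tested genes. Srpk1, a cytoplasmic SR kinase, rose by 0.21 (adjusted p = 9.82e-04 by edgeR, and 0.0775 with the gene length correction), while its relative Srpk2 fell by 0.56, the nuclear kinases Clk1 and Clk3 fell by 0.65 and 0.76, and Dyrk1b fell by 1.39 (adjusted p = 6.92e-07, 2.84e-06, 5.63e-08 and 2.18e-09 by edgeR). Clk3 was between 8.37 and 9.16 FPKM in the control libraries and between 4.65 and 5.83 FPKM in the Arf1-deficient libraries. The median log2 fold change of the 9 was -0.11.

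Of 19 hnRNP genes without the pathway entry, 10 were higher and 3 lower, with a median of 0.18. Hnrnpdl, a close relative of hnRNP D, rose by 1.22, from 28.3 ± 2.14 (SD) FPKM to 72.2 ± 5.70 (SD) FPKM with shArf1-1 and 65.2 ± 1.31 (SD) FPKM with shArf1-2, Hnrnpa2b1 rose by 0.77 and Hnrnpf fell by 0.31 on the log2 scale (adjusted p = 2.95e-11, 1.30e-07 and 1.17e-04 by edgeR). Of 16 tested genes for the assembly of snRNPs, 10 were higher and 2 lower, with a median of 0.26. Among them Prmt5, which methylates Sm proteins, rose by 0.46, its partner Wdr77 by 1.11 and Gemin6 by 0.67, while Gemin8 fell by 0.64 (adjusted p = 1.57e-05, 8.92e-09, 7.42e-05 and 3.03e-06 by edgeR). Smn1, around which the assembly complex forms, rose by 0.28 (adjusted p = 0.00497 by edgeR, and 0.0675 without shlucif replicate 2). Of 25 tested tissue-specific splicing regulators, 15 were higher and 7 lower, with a median of 0.28. The largest rises in this list were those of the neuronal regulators Nova1, Ptbp2 and Celf3, by 1.55, 1.07 and 0.97 (adjusted p = 1.31e-09, 2.39e-09 and 1.07e-10 by edgeR). Ptbp1, which is replaced by Ptbp2 in neurons, rose by 0.31 (adjusted p = 1.63e-04 by edgeR). Others of the list went the opposite way. Celf2 had 50, 61 and 65 counts with shlucif and at most 4 in any Arf1-deficient library (adjusted p = 4.19e-09 by edgeR), the largest change of the list. Celf6, Celf4, Mbnl2 and Rbfox2 fell by 0.77, 0.61, 0.44 and 0.30 (adjusted p = 5.96e-07, 1.02e-07, 5.18e-05 and 6.85e-06 by edgeR), and Nova2 had a log2 fold change of 0.04 that did not pass the threshold.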

How the data were processed

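The 9 RNA-seq libraries (N2a cells, 3 per hairpin) were analysed from 1 table. The authors deposited a raw read count and an FPKM value per gene and library, and the deposited FPKM values equal the count per gene length and library total. Its columns headed shArf2 were taken as shArf1-2, since no sample is labelled as a knockdown of Arf2 and 9 columns meet 9 samples. The submitters' processing notes name mm10. The aligner, the counter and its strand setting are not given in the sources used here. Coordinates are those of GENCODE M21 (GRCm38) by identifier, and promoters are from RefSeq (GRCm38.p6). Counts were filtered with filterByExpr and scaled by TMM, and all 12448 genes kept were fitted with edgeR 4.0.16 (glmQLFit, robust, and glmQLFTest) in R 4.3.3, once for 6 Arf1-deficient against 3 shlucif libraries and once with 3 groups. P-values were adjusted by Benjamini-Hochberg over all genes. Both fits were also run on simulated data with few changed genes and no difference between the hairpins. That setting is unlike these data, so the run does not measure the error of the fits here. The members, classes and lists were chosen with earlier results of these data known. Members were taken by their pathway entry, while the classes and lists were written by hand. Genes named were a list fixed by role, the 10 largest rises and falls among members past the threshold with no overlap in FPKM and at least 5 CPM in the higher group, the 5 largest differences between the hairpins each way, and the most abundant gene of each class. Other genes in the text were picked with their values in view. Alternatives were library size or upper quartile scaling, DESeq2 1.42.0, no filter, a replicate block, a minimum of 10 counts per library, limma 3.58.1 on FPKM on the log2 scale with 1 or 0.1 added, the average of the hairpin contrasts, a gene length correction, and each library left out. With 3 or fewer counts a gene was read as not detected. Some genes are not reported here.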

Additional observations from a re-analysis of the deposited data

Results flagged for a closer look

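The effects of the hairpins differed in 19 spliceosome genes by the test of the difference itself (adjusted p under 0.05 by edgeR), a share of the 121 tested that is near the 14.4% over all tested genes. The log2 difference, shArf1-2 minus shArf1-1, was -0.47 for Lsm6, -0.46 for Txnl4a, -0.46 for Lsm4, -0.38 for Prpf18, -0.37 for Rbmx and 0.37 for Prpf40b, each with no overlap between the libraries of the hairpins in FPKM. Arf1 was lower with shArf1-1 than with shArf1-2, and its part in these differences was not tested.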

How the results depend on the processing

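The 67 higher spliceosome genes stayed between 66 and 74 over the other scalings, filters and tools, and the 14 lower ones between 9 and 16. The lower count was 9 with library size scaling and with limma on log2(FPKM + 1) and log2(FPKM + 0.1). Under these 3 settings the median log2 fold change of the spliceosome genes moved to 0.28, 0.27 and 0.28. Library size scaling also moved the median of all tested genes to 0.066. The class medians under the same 3 settings were 0.21, 0.20 and 0.21 for Prp19, 0.59, 0.58 and 0.59 for exon junction, TREX and cap-binding, 0.10, 0.10 and 0.10 for U5, 0.20, 0.20 and 0.20 for hnRNP, and 0.037, 0.035 and 0.037 for step-specific proteins, which had been at -0.03. They were 0.28 and 0.28 for U2 and 0.26 and 0.26 for U4/U6 with library size scaling and limma on log2(FPKM + 0.1), and 0.30 for Sm proteins without a filter on low counts. The causes of these shifts were not tested.

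Leaving out 1 library gave 60 to 69 higher and 11 to 16 lower genes, 67 to 71 and 9 to 12 with shArf1-1, 53 to 60 and 14 to 18 with shArf1-2, and 10 to 22 between the hairpins. The medians then ran from 0.20 to 0.24 over all spliceosome genes, 0.14 to 0.19 for Prp19, 0.11 to 0.22 for Sm, and -0.04 to 0.004 for step-specific proteins. Sf3b1 turned to -0.080 with the gene length correction, and Hnrnpa1 to -0.0014 with DESeq2 and -0.00085 with at least 10 counts in every library. Without 1 library Sf3b1 ran from -0.010 to 0.034, Hnrnpa1 from -0.011 to 0.021, Srsf4 from -0.0025 to 0.044 and Srsf9 from -0.0068 to 0.048, none of them past the threshold. Of the 80 named genes past the threshold, 67 kept their direction and call under all 19 alternatives and 0 changed sign.

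Replicate numbers are shared between groups. Over all tested genes, deviations of same-numbered libraries from their group means had r between -0.082 and 0.094 (9 pairs). The labels do not say whether such libraries were prepared together, and these correlations cannot decide it. With a replicate block 66 genes were higher and 13 lower, and 19 differed between the hairpins. Among tested genes, Magohb and Alyref2 had low counts and are limited by depth.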

Other observations

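The 5 genes that were left out because they carry both pathway entries encode Hsp70 proteins. Hspa8, the constitutive form that also takes part in the spliceosome, was at 643, 621 and 647 FPKM with shlucif, at 314, 323 and 310 FPKM with shArf1-1 and at 342, 334 and 355 FPKM with shArf1-2. It fell by 1.01 (log2, SE 0.05, adjusted p = 8.81e-13 by edgeR), more than any of the 14 spliceosome genes that were lower. Snrpn, the neuronal Sm protein, is not in the pathway entry and had a log2 fold change of 0.04 (adjusted p = 0.81 by edgeR), at 6.04 ± 0.486 FPKM (SD, n = 3) in shlucif cells. Its log2 fold change was 0.23 with shArf1-1 and -0.17 with shArf1-2, neither past the threshold. The hairpins differed by -0.40 (adjusted p = 0.0263 by edgeR).

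Of the 126 spliceosome genes 5 were not tested, U2af1l4, Eif4a3l1, Rbmxl2, Gm4340 and Snrpf, and none had more than 4 counts in a library. At these counts a difference in them was below detection, and why the counts are this low was not tested.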
